A study of Homo sapiens with 6 samples.

Results

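Described here are 7 genes that carry out or undergo the unconventional splicing of XBP1 mRNA. They are ERN1, which encodes the sensor and nuclease IRE1, its substrate XBP1, and 5 genes of the tRNA ligase machinery. Of the latter, RTCB, DDX1, FAM98B and RTRAF encode subunits of the ligase complex, and ZBTB8OS encodes the archease that activates it. They were taken by name from the 57905 Ensembl genes of the count files, and all 7 were among the 14398 genes with enough counts to be tested. The RNA came from H929, an established cell line of human multiple myeloma. For 1 h at 37 °C, total RNA was incubated either with 2 μg of recombinant human IRE1 (IRE1-treated, 3 libraries) or without the enzyme (control, 3 libraries). Each reaction held 5 μg of RNA and ended with 5 min at 95 °C, and the labels name no treatment of the cells before RNA extraction in either group. The enzyme was a cytoplasmic fragment of the protein, amino acids 467 to 977, so the assay added IRE1 protein to purified RNA and no cell responded to it. Poly(A)-containing mRNA was then purified and sequenced.

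IRE1 is a transmembrane protein of the endoplasmic reticulum (ER) that senses unfolded proteins. Once active, its nuclease domain cuts XBP1 mRNA at 2 stem-loops and so frees a short intron, and the tRNA ligase complex joins the ends in the cytosol. The spliced mRNA is read in another frame and encodes the transcription factor XBP1s, which plasma cells and the myelomas that arise from them need to build a large secretory apparatus. The same nuclease also cuts other mRNAs, which is known as regulated IRE1-dependent decay (RIDD). Purified RNA holds no ligase, and a cut mRNA keeps its poly(A) tail only on the 3′ part.

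The stretch that IRE1 removes is shown because the whole assay turns on it. In the GRCh37 genome the intron lies at chr22:29192115-29192140 on the minus strand, within coding exon 4 of 5 of the 1850-base XBP1 transcript, and has 26 bases. Removing it lengthens the open reading frame from 261 to 376 codons. The intron is given whole in lower case, and in the hairpins around its ends the 7 loop bases are in capitals and the 6 paired bases of each stem arm in lower case.
XBP1 intron: cagcactcagactacgtgcacctctg
XBP1 5′ hairpin, chr22:29192131-29192149: ctgagtCCGCAGCactcag
XBP1 3′ hairpin, chr22:29192105-29192123: gcacctCTGCAGCaggtgc
Each loop holds the IRE1 motif CNGCAG, as CCGCAG at the 5′ site and CTGCAG at the 3′ site, and the cut falls after the third base of the motif. The cuts follow bases 566 and 592 of the transcript, so that 30.6% of its bases lie 5′ of the first cut and 1258 bases lie 3′ of the second. The deposited gene counts add the reads on both sides of these sites, and reads from spliced and unspliced XBP1 cannot be told apart in them.

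**Figure D1:**
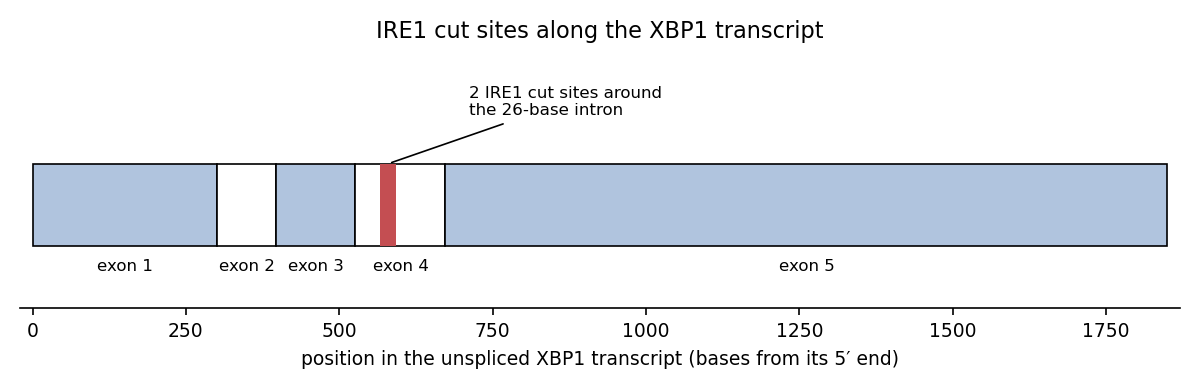
Map of the unspliced XBP1 transcript, with the position in bases from its 5′ end on the horizontal axis, the 5 exons as boxes and the 26-base intron in red. The cut sites lie in exon 4, and exon 5 alone makes up 1178 of the 1850 bases.

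Between 19615715 and 25678499 counts fell on genes in each library. Normalized counts are counts divided by the library size and its TMM factor, a scaling that takes most genes as unchanged, and they are not corrected for gene length. The factor was 1.02 to 1.03 for each control, and after IRE1 it was 0.947 for replicate 1, 0.980 for replicate 2 and 0.996 for replicate 3. The plasma cell identity of the RNA was plain: all 8 markers were detected, with 85582 normalized counts of JCHAIN and 25208 of SDC1 in the controls on average. Of the markers of other cells, MS4A1 (B cells) and CD14 (monocytes) were at 0 in every control library, PAX5 had 25.3 and LYZ 4.85 normalized counts on average, whereas CD3E, a T cell receptor subunit, had 919 ± 21.8 (SD, n = 3). In bulk RNA, few cells with much of an mRNA and many with little cannot be told apart, and the part of such cells in the levels below was not tested. The labels call the samples biological replicates, and each was sequenced in its own lane, so lane and sample cannot be told apart.

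At baseline XBP1 mRNA was far more abundant than the mRNAs of the enzymes that process it. Protein levels were not measured. Levels per length were set out as TPM, a share of all transcripts corrected for their length, computed from the counts and the length of all annotated exons, in the 3 control libraries. XBP1 stood at 3063, 2936 and 2952 TPM (2984 ± 69.0, SD, n = 3), above 99.7% of the tested genes. The gene of the catalytic ligase, RTCB, followed at 106 ± 5.45 TPM. The mRNA level of XBP1 was 28.1 times that of RTCB. ERN1 came next, with 64.6, 62.4 and 59.5 TPM (62.1 ± 2.53), a level above that of 84.8% of tested genes. The subunit RTRAF had 56.1 ± 1.39 TPM and the RNA helicase DDX1 24.9 ± 1.83. ZBTB8OS, the archease that activates the ligase, had 22.9 ± 1.26 TPM, and the subunit FAM98B 12.6 ± 0.746. Each pair of neighbours in this order was separate in all control libraries except DDX1 and ZBTB8OS, whose ranges overlapped. The order of the subunits depended on the length used. With the longest annotated transcript in place of all exons, DDX1 stood at 55.9 TPM, above RTRAF at 41.5, ERN1 stood at 82.5, and the other 5 genes kept their ranks. The subunits of this ligase complex were thus not equally abundant as mRNA: the highest, RTCB, and the lowest, FAM98B, were separate in every control library under both lengths.

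**Figure D2:**
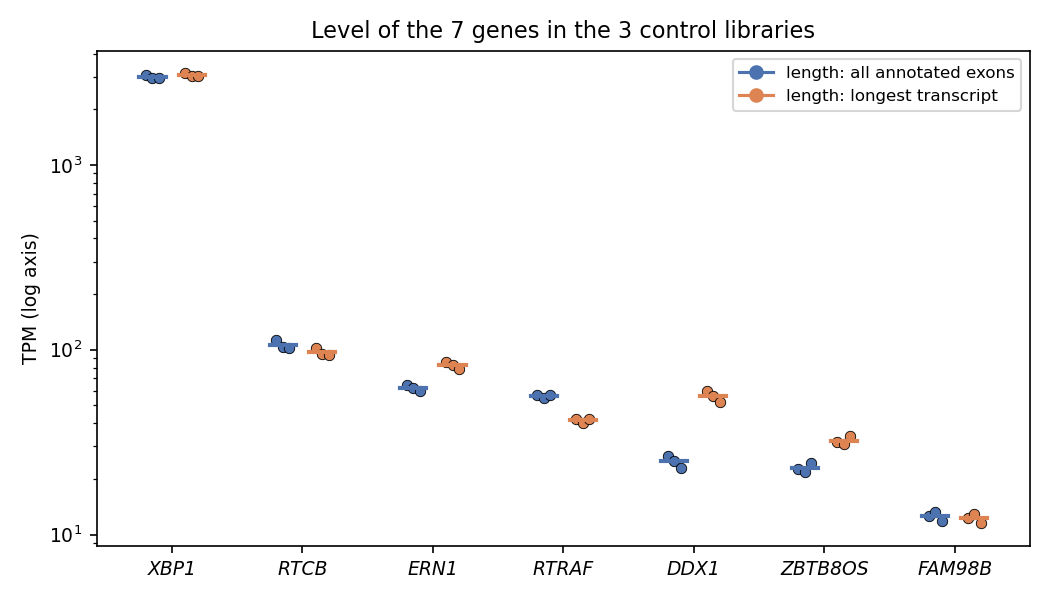
Level of each gene in TPM (log axis) in the 3 control libraries (points), with the mean as a line, for lengths from all annotated exons (blue) and from the longest transcript (orange). XBP1 lies far above the rest under both lengths, at 2984 and 3055 TPM, RTCB and ERN1 follow, and DDX1 and RTRAF exchange ranks between the lengths.

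After incubation with IRE1, 4 of the 7 genes passed the threshold (adjusted p under 0.05 by the quasi-likelihood test of edgeR, with Benjamini-Hochberg adjustment over all tested genes). ERN1 fell, while RTCB, ZBTB8OS and RTRAF rose, and XBP1, DDX1 and FAM98B did not pass. Here and below, a rise or a fall is a change in a gene's scaled share of a library's counts. No mRNA is made in purified RNA, so a rise is a larger share and not new mRNA. Over all tested genes, 22.7% were called, 12.4% as lower and 10.3% as higher. The median log2 fold change was 0.07 over the 7 genes and 0.0045 over all tested genes. The groups did not overlap for 5 of the 7 genes, against 39.1% of tested genes. With 7 genes, these counts describe the genes and say nothing of a common direction.

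ERN1 (ENSG00000178607, chr17:62116440-62208179, minus strand) was the member that fell. Its normalized counts were 8149, 7864 and 7639 in the controls and 6192, 6462 and 6822 in the IRE1-treated libraries. All 3 IRE1-treated libraries thus lay under the lowest control. The mean went from 7884 ± 255 to 6492 ± 316 (SD, n = 3), a log2 fold change of -0.28 (SE 0.0494, 95% interval -0.38 to -0.18, edgeR adjusted p = 0.00117). ERN1 kept its direction and its call with each library left out in turn. Its longest transcript has 9028 bases, which places it in the longest decile of tested genes, where the median log2 fold change was -0.25. With each library's trend with transcript length and GC content removed, the difference of ERN1 was -0.06 (edgeR adjusted p = 0.338).

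XBP1 (ENSG00000100219, chr22:29190543-29196585, minus strand) changed little as a whole gene under TMM scaling. Its normalized counts were 61124, 58538 and 59921 in the controls and 57376, 56865 and 54174 after IRE1. The groups did not overlap, yet the highest treated library lay only 1.98% under the lowest control. The IRE1-treated mean was 93.8% of the control mean (95% interval 88.0 to 99.99%), with a log2 fold change of -0.09 (SE 0.0436), which did not pass after adjustment (edgeR adjusted p = 0.143). This call turned on the scaling. With library size in place of TMM the difference was -0.17 (edgeR adjusted p = 0.00371), and with the length and GC trend removed it was -0.22 (edgeR adjusted p = 5.08e-04). As TPM from all annotated exons, XBP1 stood at 2984 ± 69.0 in the controls and 2535 ± 57.2 after IRE1, without overlap. Genes of the same length decile as XBP1 had a median of 0.11. Leaving out IRE1-treated replicate 1 also brought it past the threshold (-0.11, edgeR adjusted p = 0.0277). The estimate was negative in all 15 alternative fits, from -0.22 to -0.06. BLOC1S1, another established IRE1 substrate with a transcript of 1229 bases, went from 614 ± 34.0 to 239 ± 33.0 normalized counts in the same libraries (-1.37, edgeR adjusted p = 1.25e-06). In XBP1, 30.6% of the bases lie 5′ of the first cut, and this share was not computed for BLOC1S1, so the falls have no common scale. By exon, the paper reports clearly fewer XBP1 reads 5′ of the cuts and similar numbers 3′ of them. Its qRT-PCR across the sites was also lower after IRE1.

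RTRAF (ENSG00000087302, chr14:52456232-52477412, plus strand), which encodes an RNA-binding subunit of the ligase complex, rose. Its normalized counts were 3117, 2974 and 3149 in the controls and 4043, 3881 and 3763 in the IRE1-treated libraries. The lowest treated library was well above the highest control. The mean went from 3080 ± 93.4 to 3896 ± 141 (log2 fold change 0.34, SE 0.0485, 95% interval 0.24 to 0.44, edgeR adjusted p = 3.04e-04). RTRAF was the one member whose call and direction held in all 15 alternative fits, with differences of 0.26 to 0.55 and edgeR, DESeq2 or limma adjusted p up to 0.00575. Its annotated transcripts differ widely in length: the longest has 7007 bases, for which the median of tested genes of like length was -0.17, and the other protein-coding ones have 683 and 851 bases, which lie in the shortest decile, with a median of 0.21. Gene counts do not show which of them was counted, so the value of 0.55 obtained with the length trend removed holds only for the longest one. RTRAF shares 1909 exon bases with NID2 on the opposite strand, which had 3 to 13 counts in any library.

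ZBTB8OS (ENSG00000176261, chr1:33065773-33116504, minus strand), the archease that RTCB needs for repeated rounds of ligation, also rose, but unevenly. It had 523, 507 and 574 normalized counts in the controls and 861, 668 and 596 in the IRE1-treated libraries. IRE1-treated replicate 1 stood far above the other treated libraries, and replicate 3 was only just above the highest control. The mean went from 535 ± 35.0 to 709 ± 137 (log2 fold change 0.40, SE 0.106, 95% interval 0.17 to 0.62, edgeR adjusted p = 0.0135). The estimate was 0.24 without IRE1-treated replicate 1. The call was lost without control replicate 1 (0.38, edgeR adjusted p = 0.0665), without control replicate 2 (0.36, adjusted p = 0.0684) and with the length and GC trend removed (0.26, adjusted p = 0.111). The value with this trend removed used the length of its longest transcript, 1567 bases, and gene counts do not show which transcript was counted. ZBTB8OS shares 179 exon bases with ZBTB8A on the opposite strand, which had 85 to 108 counts per library.

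RTCB (ENSG00000100220, chr22:32783569-32808235, minus strand), the catalytic subunit that seals the exon ends, showed a smaller rise. It had 2177, 2007 and 2016 normalized counts in the controls and 2404, 2331 and 2225 after IRE1. The groups did not overlap, but the lowest treated library was close to the highest control. The mean went from 2067 ± 95.6 to 2320 ± 90.1 (log2 fold change 0.17, SE 0.0527, 95% interval 0.05 to 0.28, edgeR adjusted p = 0.0336). As TPM from all annotated exons, RTCB stood at 106 ± 5.45 in the controls and 108 ± 1.40 after IRE1, with overlapping groups. The call was among the least stable. It was lost without control replicate 2 (0.15, edgeR adjusted p = 0.164), control replicate 3 (0.15, adjusted p = 0.128) or IRE1-treated replicate 2 (0.16, adjusted p = 0.102), with library size in place of TMM (0.09, adjusted p = 0.230), and with the length and GC trend removed (0.06, adjusted p = 0.468).

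DDX1 and FAM98B, the helicase and a further subunit, did not pass. DDX1 (ENSG00000079785, chr2:15731302-15774470, plus strand) had 1783, 1659 and 1565 normalized counts in the controls and 1781, 1737 and 1739 after IRE1, with overlapping groups. Its log2 fold change was 0.07 (95% interval -0.05 to 0.19, edgeR adjusted p = 0.412) and it turned to -0.01 with library size only. FAM98B (ENSG00000171262, chr15:38746328-38779911, plus strand) had 570, 599 and 541 in the controls and 541, 562 and 602 after IRE1. The treated range enclosed the control range, and the log2 fold change was -0.0027 (95% interval -0.16 to 0.15, edgeR adjusted p = 0.986), with a sign that changed between fits. The interval of DDX1 includes the value found for RTCB.

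**Figure D3:**
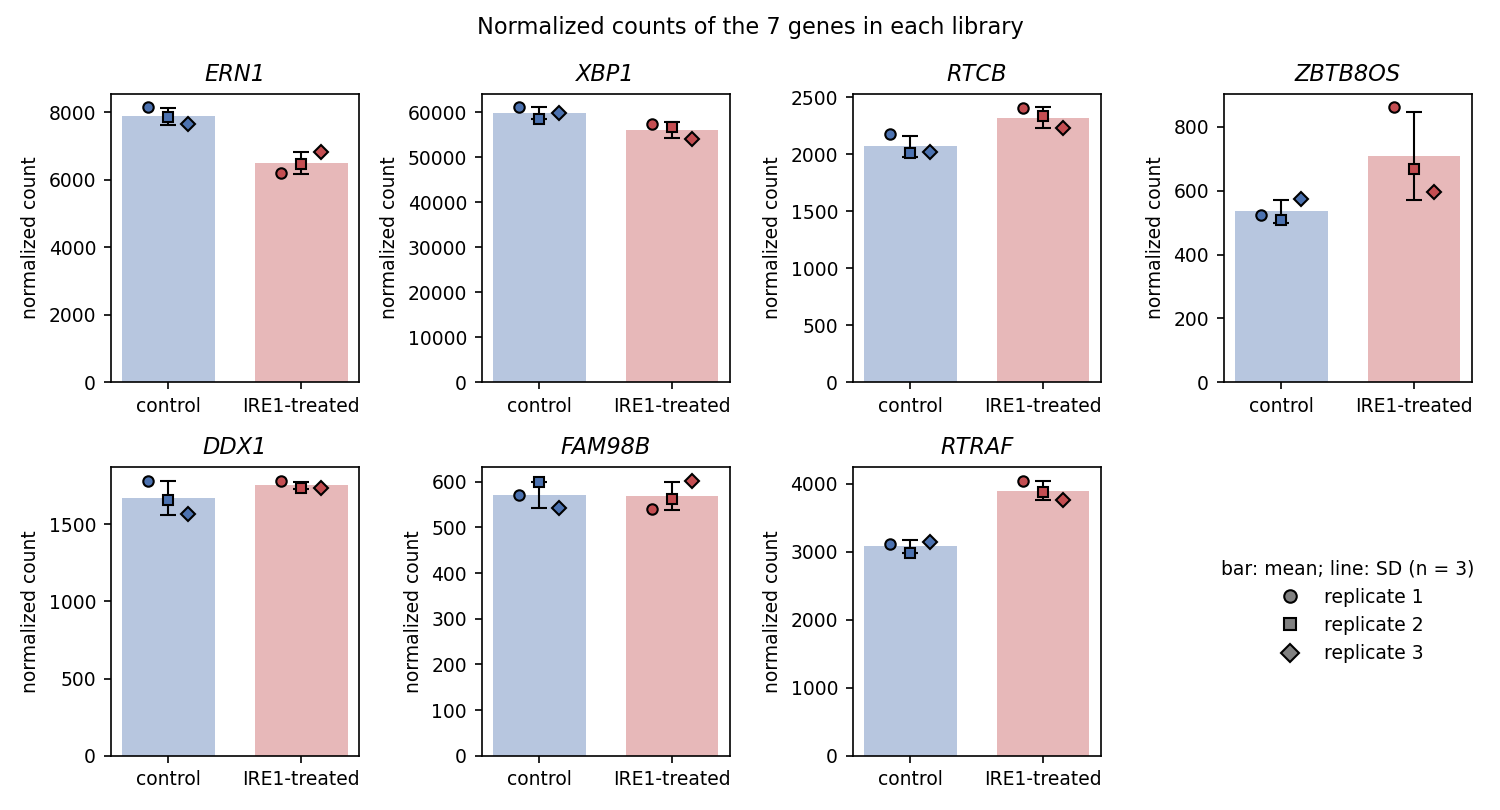
Normalized counts (vertical axes, from 0) of the 7 genes in the 3 control and 3 IRE1-treated libraries, with symbols for the replicate number, bars for the mean and lines for the SD (n = 3). ERN1 is lower and RTRAF higher in every IRE1-treated library, the groups of XBP1 lie close together at 59861 and 56138 on average, and replicate 1 of ZBTB8OS stands apart after IRE1 at 861.

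**Figure D4:**
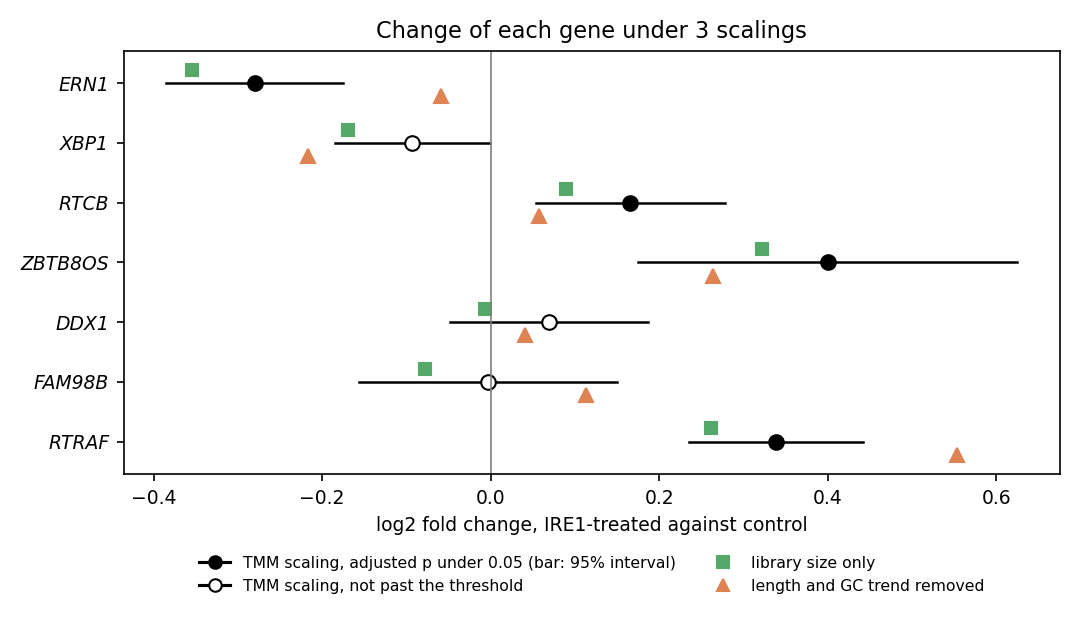
Log2 fold change of each gene, IRE1-treated against control, with its 95% interval under TMM scaling (circles, filled where the adjusted p is under 0.05), beside the values with library size only (squares) and with the length and GC trend removed (triangles). RTRAF, ZBTB8OS and RTCB are above 0 and XBP1 and ERN1 below 0 under all 3. ERN1 moves from -0.28 to -0.06 once the length trend is removed.

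Because normalization moved several of these values, pairs of members were also compared within each library, where any scaling of a library cancels. A trend with transcript length does not cancel in such a ratio where the members of a pair differ in length. With 3 libraries against 3, the smallest p an exact permutation test can give is 0.1, so none of these 8 ratios could pass 0.05. The ratio of XBP1 to RTCB counts was 28.1, 29.2 and 29.7 in the controls and 23.9, 24.4 and 24.3 after IRE1, without overlap (log2 difference -0.26, two-sided exact permutation p = 0.1). Relative to the ligase, substrate reads were lower in every treated library than in any control. The ratio of XBP1 to ERN1 went the other way, from 7.60 ± 0.216 to 8.67 ± 0.672 (log2 difference 0.19, exact permutation p = 0.1, n = 3), though IRE1-treated replicate 3 at 7.94 was close to the highest control at 7.84. With the length and GC trend removed, XBP1 stood at -0.22 and ERN1 at -0.06, so XBP1 was then the lower of this pair. The ratio of RTRAF to ERN1 was 0.383, 0.378 and 0.412 in the controls and 0.653, 0.6005 and 0.552 after IRE1 (log2 difference 0.62, exact permutation p = 0.1). Among the ligase complex and its archease, the ratio of RTRAF to DDX1 was 1.85 ± 0.141 in the controls and 2.22 ± 0.0541 after IRE1, without overlap (exact permutation p = 0.1, n = 3). The ratios of RTCB to DDX1 (exact permutation p = 0.2), ZBTB8OS to RTCB (exact permutation p = 0.2) and FAM98B to DDX1 (exact permutation p = 0.5) overlapped between the groups.

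Transcript length moved with the changes across the whole library, and the members lay along it to different degrees. The median log2 fold change of tested genes fell from 0.21 in the shortest decile (up to 1135 bases) to -0.25 in the longest (from 7606 bases). DDX1 at 0.07 and FAM98B at -0.0027 lay near the medians of their deciles, 0.03 and -0.07, and RTCB at 0.17 was within the middle 50% of its decile, which ran from 0.02 to 0.19. XBP1 at -0.09 lay under that same range, since it shares the decile of RTCB. ZBTB8OS at 0.40 was above the middle 50% of the decile of its longest transcript, which reached 0.26. Its other protein-coding transcripts, of 312 to 817 bases, lie in the shortest decile, where the middle 50% reached 0.33. RTRAF at 0.34 was above the middle 50% of the decile of its longest transcript, which reached -0.04. Whether length itself set any member's value was not tested.

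**Figure D5:**
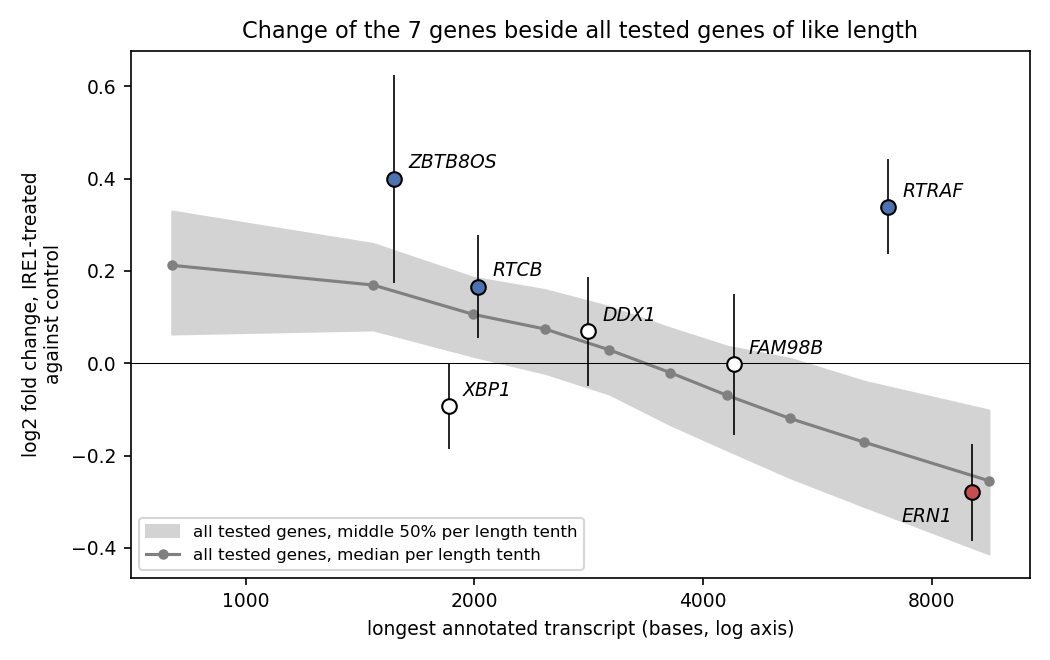
Log2 fold change of the 7 genes (points with 95% intervals; red lower, blue higher, white not past the threshold) against the length of the longest annotated transcript (log axis), with the median and the middle 50% of all tested genes in each length decile in grey. ERN1, DDX1, FAM98B and RTCB lie within the grey band, XBP1 under it, and ZBTB8OS and RTRAF above it.

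The IRE1-treated libraries differed in how far they stood from the controls, and the members were not all ordered alike in this. Per doubling of transcript length, the log2 difference from the control mean fell by 0.157 in IRE1-treated replicate 1, by 0.119 in replicate 2 and by 0.0722 in replicate 3, against slopes of -0.0206 to 0.0271 in the controls. ERN1 was lowest in replicate 1 (-0.35 from the control mean on the log2 scale, against -0.29 and -0.21 in replicates 2 and 3). RTRAF, RTCB and ZBTB8OS were highest in the same library, at 0.39, 0.22 and 0.69 in replicate 1 and 0.29, 0.11 and 0.16 in replicate 3. XBP1 was instead nearest to the controls in replicate 1, at -0.06, and farthest in replicate 3, at -0.14. DDX1, at 0.09, 0.06 and 0.06 in replicates 1, 2 and 3, stayed within the control range of -0.09 to 0.10, and FAM98B, at -0.08, -0.02 and 0.08, lay below the control mean in replicates 1 and 2 and above it in replicate 3. BLOC1S1 had the same order as XBP1, with -1.15 in replicate 1, -1.41 in replicate 2 and -1.53 in replicate 3. With 3 libraries these orders are a description and were not tested.

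Sites with the letters CNGCAG were counted in the longest transcript of each member, to see how the XBP1 sites compare with those in the other mRNAs. The search used the transcript strand only, overlapping matches counted, and a site was called a hairpin site if the base before the cut position fell in a predicted loop of 5 to 11 bases on a stem of at least 3 pairs within 30 bases. Of 12225 tested transcripts searched, 97.3% held the letters, at 2.09 sites per kb, and 67.2% held a hairpin site. All 7 members held the letters, so their presence set none of them apart. XBP1 had 4 sites, all 4 in predicted hairpins, which include the cut sites above and a match that overlaps the 3′ site. In the 30-base window of this search the 5′ site folded into another stem-loop, with a 6-base loop and 4 pairs, than the 7-base loop and 6 pairs shown above, which came from folding the intron with 10 bases on each side. Over all transcripts, 17.4% of sites were hairpin sites. ERN1 had 34 sites (3.77 per kb), 7 of them in hairpins, and 13 of its 34 lay in coding exon 13, which holds a run of CAG repeats. RTRAF had 6 sites, 2 of them in hairpins, RTCB had 5 with 1 hairpin, ZBTB8OS 4 with 1, DDX1 3 with 1, and FAM98B 1 with none. The counts of the rising RTRAF and the falling ERN1 are set beside a hairpin from each, chosen after the values were seen because they hold CTGCAG, the letters of the XBP1 3′ site, with the loop in capitals.
RTRAF, 3′ UTR, chr14:52472468-52472488: ggggtagACTGCAGttatccc
ERN1, coding exon 18, chr17:62126472-62126485: gtcCCTGCAGCggc
The RTRAF stem-loop has a 7-base loop, the size of those at the XBP1 sites, and a stem of 7 pairs. Its loop opens with an A before the motif, whereas the XBP1 loops open with the motif itself. The site was found in the longest RTRAF transcript, and gene counts do not show which transcript was counted. The ERN1 stem-loop has an 8-base loop and 3 pairs. A CTGCAG hairpin was found in 41.9% of the transcripts searched. These matches are predictions from sequence, and no read position in the gene counts shows whether any of them was cut.

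Other genes of the pathway were described in 3 lists, whose counts are read against the 22.7% of all tested genes called (12.4% lower and 10.3% higher). Of 12 other genes of RNA end processing and tRNA splicing, all tested, 1 fell and none rose (edgeR's quasi-likelihood test; 2 of the 12 were higher at an unadjusted p under 0.05, and DESeq2 and limma also called none higher). The median log2 fold change of the list was 0.04. The gene that fell was ANGEL2, a phosphatase that removes the 2′,3′-cyclic phosphate which RTCB uses as a substrate. It had 400.0, 399 and 398 normalized counts in the controls and 274, 336 and 368 after IRE1 (-0.29, SE 0.0983, edgeR adjusted p = 0.0471). Its call held in 1 of 6 fits with a library left out, the fit without IRE1-treated replicate 3. Without control replicate 1, 2 or 3 or IRE1-treated replicate 2, edgeR called 0 of the 12 genes, with 2 or 3 at an unadjusted p under 0.05. Without IRE1-treated replicate 1, ANGEL2 was at -0.18 (edgeR adjusted p = 0.144) and the 1 gene called was TSEN54, which was higher (0.19, adjusted p = 0.0196). With the length and GC trend removed, ANGEL2 was at -0.16 (adjusted p = 0.254) and the 1 gene called was CNP, also higher (0.16, adjusted p = 0.0347), so that the direction of the list's single call depended on the fit. TSEN15, TSEN34 and TSEN54, subunits of the tRNA splicing endonuclease that makes the ends RTCB joins, had differences of -0.01, 0.03 and 0.15 and did not pass. RTCA, the cyclase that turns RNA 3′-phosphates into cyclic phosphates, stood at 0.19 (edgeR adjusted p = 0.0828). FAM98A and FAM98C, paralogs of FAM98B, stood at -0.13 and -0.0018.

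Among 13 genes whose proteins bind IRE1 or act on it, 12 were tested, and 2 rose and 2 fell, with a median of -0.0030. With 12 genes, 4 calls are not far from the 22.7% over all tested genes. ERN2, which encodes the second human IRE1, had 1 count in 1 control library and none in the others. HSPA5, the chaperone BiP that holds IRE1 inactive, went from 24048 ± 434 to 26883 ± 838 normalized counts (n = 3, 0.16, edgeR adjusted p = 0.0165). DDRGK1, an adaptor of the UFMylation system, rose from 1537 ± 51.6 to 1831 ± 119 (0.25, edgeR adjusted p = 0.00529). UFL1, the ligase of the same system, fell from 1013 ± 43.7 to 740 ± 80.3 (-0.45, edgeR adjusted p = 7.28e-04). SEL1L, the ER-associated degradation adaptor that acts with the ubiquitin ligase SYVN1 in IRE1 turnover, fell from 6624 ± 421 to 5199 ± 534 (-0.35, edgeR adjusted p = 0.00191). Genes of 1 system thus moved in opposite directions, and these 4 calls had transcripts of 3921 (HSPA5), 1303 (DDRGK1), 4226 (UFL1) and 7919 (SEL1L) bases. SYVN1 itself stood at -0.07 and did not pass.

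Of 18 genes that XBP1s is known to activate, all tested, 2 rose and 3 fell, with a median of -0.04. These 5 calls among 18 genes are likewise near the 22.7% over all tested genes. SEC61B, a subunit of the ER translocon, rose from 2643 ± 39.2 to 3255 ± 36.7 normalized counts (n = 3, 0.30, edgeR adjusted p = 4.10e-04), and the ER co-chaperone DNAJB11 rose from 3781 ± 42.9 to 4522 ± 145 (0.26, edgeR adjusted p = 0.00126). SEC24D, a coat subunit of ER export vesicles, fell from 3353 ± 86.9 to 2639 ± 64.5 (-0.35, edgeR adjusted p = 2.23e-04), as did the translocon partner TRAM1 (-0.22, adjusted p = 0.0219) and EDEM1, which sends misfolded glycoproteins to degradation (-0.14, adjusted p = 0.0346). The other 13, which include HYOU1 at -0.01 and HERPUD1 at 0.05, did not pass. The number called in this list varied with the libraries used: 3 without control replicate 1, control replicate 2 or IRE1-treated replicate 2, and 9 without IRE1-treated replicate 1. DNAJB9, PDIA6 and SYVN1 stand in both of these last lists.

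The genes whose levels ran most like those of XBP1 over the 6 libraries, among 10302 genes with at least 100 normalized counts on average, were KAT14 (Pearson r = 0.989), MTO1 (0.985) and RNMT (0.968). For ERN1 they included TRAM2 and CEP170, each at 0.999. The enzyme and its substrate were less alike, with r = 0.69 between ERN1 and XBP1, and ERN1 and RTRAF were opposed, with r = -0.97. The 6 libraries form 2 groups of 3 that share their treatment and length trend, so these values describe the libraries and carry no test.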

How the data were processed

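From the labels and the methods of the study, poly(A)-containing mRNA was made into TruSeq stranded libraries, 1 for each of the 6 samples. The authors used Cutadapt 1.12 for trimming, STAR 2.5.3a for alignment to GRCh37 (annotation of Ensembl 87) and HTSeq 0.6.1p1 for counts per gene, whose strand and overlap settings are not given in the sources used here. They deposited these raw counts, and a table of CPM made with edgeR 3.24.3, for the more expressed genes, used here only in an alternative. The 5 HTSeq summary lines, 21.4 to 23.2% of each library's total, entered neither library sizes nor tests. Depth on genes was 19615715 to 25678499 counts.

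The 7 genes and all gene lists were chosen with earlier results of these data known. Counts were filtered, scaled with TMM and tested with edgeR 4.0.16 (R 4.3.3), with all 6 libraries in 1 fit without covariates, Benjamini-Hochberg adjustment over 14398 genes and a threshold of 0.05. The exon test of the study could not be made from gene counts. Intervals are 95% and come from the fit, so they hold replicate spread and counting error. Named beside the 7 genes were BLOC1S1, the called genes of each list with the largest changes (at most 3 in each direction) and the 3 genes most like XBP1 and ERN1, except that some genes are not reported here. Others named in the lists (TSEN15, TSEN34, TSEN54, CNP, RTCA, FAM98A, FAM98C, ERN2, SYVN1, HYOU1, HERPUD1 and the lists' shared genes), and the marker genes given, were picked for what they encode or as examples, after their values were seen. Alternatives were library size or upper quartile scaling, DESeq2 1.42.0, no filter or at least 10 counts in every library, limma 3.58.1 on log2 of the authors' CPM plus 1, a block for the replicate number, removal of each library's trend with GC content and transcript length by loess (span 0.5), both of these in 1 fit, and each library left out. For ratios, an exact two-sided permutation test was used (scipy 1.17.1). Of the 57905 gene identifiers, 55538 had a name in GENCODE 44 lifted to GRCh37, the source of positions and lengths, and sequences from that genome and its transcripts. Hairpins were predicted with RNAfold 2.7.2. The scripts' tests were checked on simulated data.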

Additional observations from a re-analysis of the deposited data

How the results depend on the processing

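Of the 4 called genes, only RTRAF kept its call in all 15 alternative fits. With the length and GC trend removed, 2 of the 7 genes were called (XBP1 and RTRAF), with ERN1 at -0.0591, XBP1 at -0.22, RTCB at 0.0577, ZBTB8OS at 0.26 and FAM98B at 0.11. With the replicate block added to this, 2 were again called and these genes stood at -0.0591, -0.22, 0.0597, 0.26 and 0.11. With library size only, XBP1 was at -0.17, RTCB at 0.0895 and DDX1 at -0.0069, and the median of all genes moved by -0.07. Of all genes, 683 were then higher and 2596 lower, against 1489 and 1781 with TMM and 911 and 682 with the trend removed (1593 called in all). FAM98B was at 0.00043 with upper quartile scaling. Same-numbered samples did not deviate together (correlations -0.0358, -0.00505 and -0.112). This gave no sign that the numbers pair them, but with 3 libraries a group it cannot exclude pairing. Under the replicate block alone RTCB was no longer called (0.17, edgeR adjusted p = 0.0590), and no other call among the 7 changed. The RNA end processing list had 2 called with library size only. It had 0 called by edgeR with upper quartile scaling, the replicate block, or the block with the trend removed, where 3, 1 and 3 of 12 had an unadjusted p under 0.05, and DESeq2 and limma each called 1. The XBP1 target list had 9 called with library size only, 3 with the trend removed and 8 with limma on the authors' CPM. With 1 library left out, ranges were -0.31 to -0.24 for ERN1, -0.11 to -0.0620 for XBP1, 0.14 to 0.21 for RTCB, 0.24 to 0.52 for ZBTB8OS, 0.0250 to 0.12 for DDX1, -0.0419 to 0.0336 for FAM98B and 0.31 to 0.37 for RTRAF. Of the 7 genes, 2 were then called at the fewest, when control replicate 2 was left out, and 5 at the most, when IRE1-treated replicate 1 was. In the lists, 0 to 2 RNA end processing genes, 3 to 5 IRE1 partners and 3 to 9 XBP1 targets were called. Control levels with the longest transcript were 82.5 TPM for ERN1, 3055 for XBP1, 96.7 for RTCB, 32.2 for ZBTB8OS, 55.9 for DDX1 and 41.5 for RTRAF. The causes were not tested. Gene counts cannot locate a cut, and with 3 libraries a group changes of DDX1 and FAM98B within their intervals were not detectable.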
